A study of Homo sapiens with 4 samples.

Results

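Coding exon tiles beyond promoters are windows of 1000 bp on hg19 that overlap protein-coding sequence, hold 40 or fewer CG dinucleotides and lie more than 2 kb from every annotated TSS. Of the 69094 autosomal tiles that at least 1 of the 3 deposited tables lists as differentially methylated, 3206 met this rule, out of 94638 such tiles in the genome. Being listed rests on the authors' comparison of methylation, and among the listed tiles the rule uses position and sequence. Coding sequences and TSSs are those of GENCODE release 44, lifted to GRCh37 (hg19). The members overlap 2340 protein-coding genes, and 48 of them overlap the coding sequence of more than 1 gene.

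RRBS (reduced representation bisulfite sequencing) was applied to 4 libraries of SKOV3, a human ovarian cancer line of mesenchymal type, and each clone gave 1 library. Of the mesenchymal (M) clones, shC-S is the control with a control shRNA, and LY75-R-S is made from knockdown cells given back LY75 as a cDNA that the shRNA cannot target. Of the epithelial (E) clones, sh-LY75-S has its LY75 lowered by shRNA and LY75-KO-S has the gene disrupted by CRISPR. One table sets shC-S against sh-LY75-S (the knockdown comparison). Another sets LY75-R-S against LY75-KO-S (the knockout comparison), and the last, the mix, sets the M clones against the E clones. The knockdown and knockout comparisons share no library, although LY75-R-S was derived from knockdown cells, and the mix draws on the same 4 libraries as both of them. LY75, also named DEC205, is an endocytic receptor of the mannose receptor family, and the study asked which methylation changes accompany the loss of LY75 and of the mesenchymal phenotype.

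In mammalian genes the cytosine of a CG dinucleotide can carry a methyl group. CG-rich promoters are mostly kept free of it, while the exons and introns downstream of an active promoter are mostly methylated, and cancer genomes often lose methylation outside CpG islands. Coding exons hold more CGs than introns. Codons of arginine, alanine, proline, serine and threonine can contain a CG, and a CG that starts at the third base continues into the next codon. MspI, the enzyme of RRBS, cuts at CCGG whatever its methylation, so a coding exon is measured only where such sites lie close together.

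The tables give a tile because the authors' comparison of the libraries passed their thresholds. The columns with the authors' own difference and its p-values were set aside, so the values here are which tiles are listed and where, without the size or the direction of a difference. The tables hold neither methylation per library nor read numbers. With 1 library per clone and no values per library, no replicate error is given and no difference between conditions was tested, and a tile listed in a single comparison separates 2 libraries, not conditions. The depth behind a tile is unknown. A tile was called readable when at least 1 of its CGs lies in the first 50 bases of either end of an MspI fragment of 40 to 220 bp, which is the part that a read of 50 bases covers. Shares of readable tiles carry 95% Wilson intervals, which cover counting error alone and treat neighbouring tiles as separate.

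As examples of what the assay can read, MspI fragments of 9 members were read from GRCh37. These were not chosen to be typical, since the median member has 1 readable CG in coding sequence. They run 5′ to 3′ on the coding strand, from the CG of one MspI site to the CG of the next, with every CG in capitals. The first 4 are the internal-exon and last-exon fragments with the most CGs among those of 40 to 150 bp that lie inside coding sequence, in members listed in all 3 tables, and no first-exon member is listed in all 3. RYR1 (chr19:38974079-38974156, + strand, exon 33 of 106) encodes the calcium release channel of skeletal muscle. CCDC85A (chr2:56420411-56420552, + strand, exon 2 of 6) encodes a coiled-coil protein. DBP (chr19:49134245-49134291, − strand, exon 4 of 4) encodes a circadian bZIP transcription factor, and LEP (chr7:127894486-127894626, + strand, exon 3 of 3) encodes the hormone leptin.
RYR1: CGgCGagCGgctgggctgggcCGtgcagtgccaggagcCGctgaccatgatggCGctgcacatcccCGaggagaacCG
CCDC85A: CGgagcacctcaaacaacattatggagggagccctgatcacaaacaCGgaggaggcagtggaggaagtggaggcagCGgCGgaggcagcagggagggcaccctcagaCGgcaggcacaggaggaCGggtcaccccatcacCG
DBP: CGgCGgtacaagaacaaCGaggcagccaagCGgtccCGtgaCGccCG
LEP: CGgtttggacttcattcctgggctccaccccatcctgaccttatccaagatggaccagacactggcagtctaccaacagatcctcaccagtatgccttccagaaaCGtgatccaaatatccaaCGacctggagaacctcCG

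The fragments differ in where the CGs fall in the codon. In DBP, 5 of the 7 CGs begin a codon, as in the arginine codons CGN, and 2 start at the third base. In RYR1, 4 of the 8 CGs start at the third base, 2 at the first and 2 at the second, and in CCDC85A 4 of 7 start at the third. LEP holds 4 CGs in 141 bases, 3 of them starting at the third base.

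The next 5 fragments belong to genes described further on and were chosen after their tables were known. ACAN (chr15:89401396-89401492, + strand, exon 12 of 19) encodes aggrecan, the large proteoglycan of cartilage, and PLXNA4 (chr7:131872279-131872322, − strand, exon 15 of 32) encodes a semaphorin receptor. LAMC3 (chr9:133911634-133911687, + strand, exon 4 of 28) encodes a laminin gamma chain of basement membranes. DSP (chr6:7583855-7583947, + strand, exon 24 of 24) encodes desmoplakin, the plakin that ties intermediate filaments to desmosomes. The LY75 fragment (chr2:160750240-160750315, − strand) lies outside the coding sequence, beside exon 3.
ACAN: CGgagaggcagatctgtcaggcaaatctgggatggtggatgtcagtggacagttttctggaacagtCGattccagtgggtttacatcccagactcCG
PLXNA4: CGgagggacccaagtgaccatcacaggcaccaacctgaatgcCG
LAMC3: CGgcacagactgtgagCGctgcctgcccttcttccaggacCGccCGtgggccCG
DSP: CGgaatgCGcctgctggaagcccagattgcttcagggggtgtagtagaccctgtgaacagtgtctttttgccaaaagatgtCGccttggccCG
LY75: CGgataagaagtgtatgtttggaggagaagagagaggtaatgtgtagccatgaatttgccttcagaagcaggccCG

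A fragment can be measured through very few CGs. The PLXNA4 fragment holds 2 CGs in 44 bases, both of them inside its MspI sites, and the ACAN fragment has 1 between its sites.

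The knockdown comparison listed 2086 coding exon tiles, the knockout comparison 1419 and the mix 810. Of the 17124 readable coding exon tiles in the genome, the knockdown comparison listed 11.4% (interval 11.0 to 11.9), against 12.4% of all readable autosomal tiles. The knockout comparison listed 7.61% (7.22 to 8.02), against 6.55% of all readable autosomal tiles. The mix listed 4.46% (4.16 to 4.78), against 5.13%. Coding exon tiles thus stood below the autosomal level in the knockdown comparison and the mix and above it in the knockout comparison. All other autosomal tiles with 40 or fewer CGs stood at 11.8% (11.7 to 11.9), 6.88% (6.79 to 6.97) and 4.88% (4.81 to 4.96), so under the same CG limit the interval of coding exons overlapped that of the rest in the knockdown comparison. Coding exon tiles with a readable CG inside coding sequence, a narrower set chosen after seeing the data, stood at 14.5%, 8.79% and 5.89%. Each lies above the autosomal level, so the direction in the knockdown comparison and the mix depends on which coding tiles are counted. The narrower set was not matched for the number of readable CGs.

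Introns of the same kind of gene are the closest comparison here, since the same limits on TSS distance and CG number apply to them. Within these limits the classes were not matched for distance or CG number. Intronic tiles with 40 or fewer CGs, which lie in a protein-coding gene and touch no exon, were listed at 9.92% (9.73 to 10.1) in the knockdown comparison, 6.17% (6.02 to 6.32) in the knockout comparison and 4.14% (4.01 to 4.26) in the mix. The intervals of coding exons and introns do not overlap in either single comparison, and they overlap in the mix. CpG-poor promoter tiles were listed at 11.8%, 6.64% and 4.87% in the same order. With fragments of up to 300 bp taken as readable, the coding exon shares were 10.1%, 6.8% and 3.94%, and the intronic shares 8.9%, 5.58% and 3.69%.

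**Figure D1:**
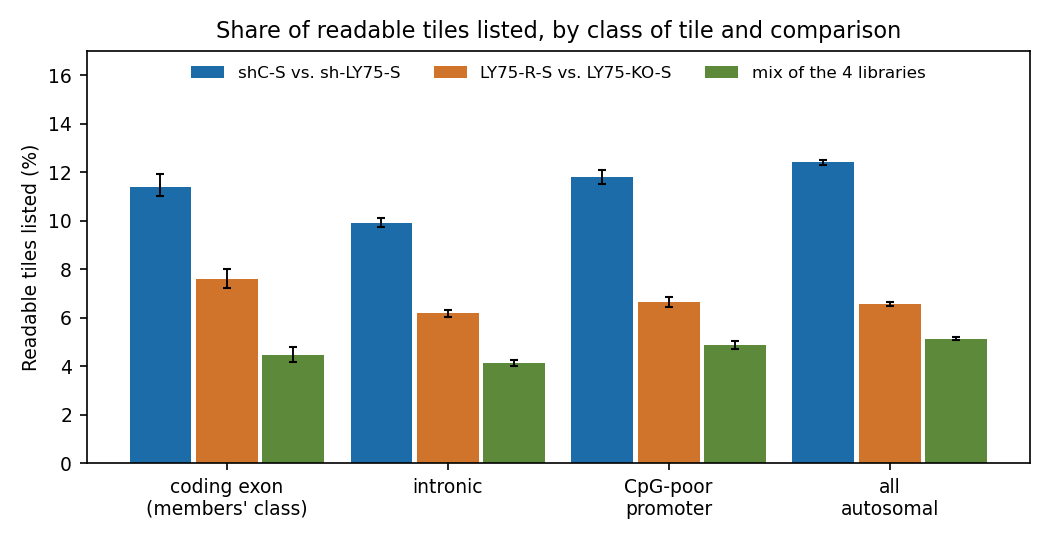
Percent of readable tiles that each comparison lists (vertical axis) for 4 classes of tile (horizontal axis); bars are shares, error bars 95% Wilson intervals for counting error, with 1 library per clone. Coding exon tiles stand above intronic tiles in both single comparisons, at 11.4% and 9.92% in the knockdown comparison and 7.61% and 6.17% in the knockout comparison.

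The gap between coding exons and introns varied with the number of readable CGs. Among tiles with a single readable CG, the knockdown comparison listed 5.47% of coding exon tiles (4.31 to 6.92) and 6.84% of intronic tiles (6.3 to 7.43), with overlapping intervals. Among tiles with 13 to 40 readable CGs it listed 16.0% of coding exon tiles (14.2 to 18.1) and 10.2% of intronic tiles (9.38 to 11.0). The step below, 9 to 12 readable CGs, stood at 14.9% (13.4 to 16.6) in coding exons and 11.4% (10.7 to 12.1) in introns.

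In the knockout comparison the share was highest, at 10.8% (9.63 to 12.1), in coding exon tiles with 2 readable CGs and stood at 6.22% (5.06 to 7.63) in those with 13 to 40. Introns followed the same course there, at 8.62% (8.19 to 9.06) and 4.67% (4.14 to 5.27). In the knockout comparison coding exons stood above introns in every step from 2 readable CGs up. The intervals were apart at 2, at 3 to 5 (7.69% and 5.89%) and at 6 to 8 (6.84% and 5.44%). With 1 readable CG coding exons stood at 4.87% and introns at 5.84%, with overlapping intervals. In the mix, coding exon tiles with 1 readable CG stood at 1.45% (0.909 to 2.31), below introns at 3.34% (2.96 to 3.76), with the intervals apart. With 2 readable CGs the shares were 6.06% (5.17 to 7.1) in coding exons and 6.23% (5.87 to 6.62) in introns. With 6 to 8 they were 3.6% (3.02 to 4.29) and 3.65% (3.38 to 3.93). With 13 to 40 they were 7.39% (6.12 to 8.9) and 4.08% (3.58 to 4.64). From 2 to 12 readable CGs the mix intervals of the classes overlapped in every step. The number of readable CGs also bears on how many readings of a CG a tile can gather, and the part of read depth in these shares was not tested.

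**Figure D2:**
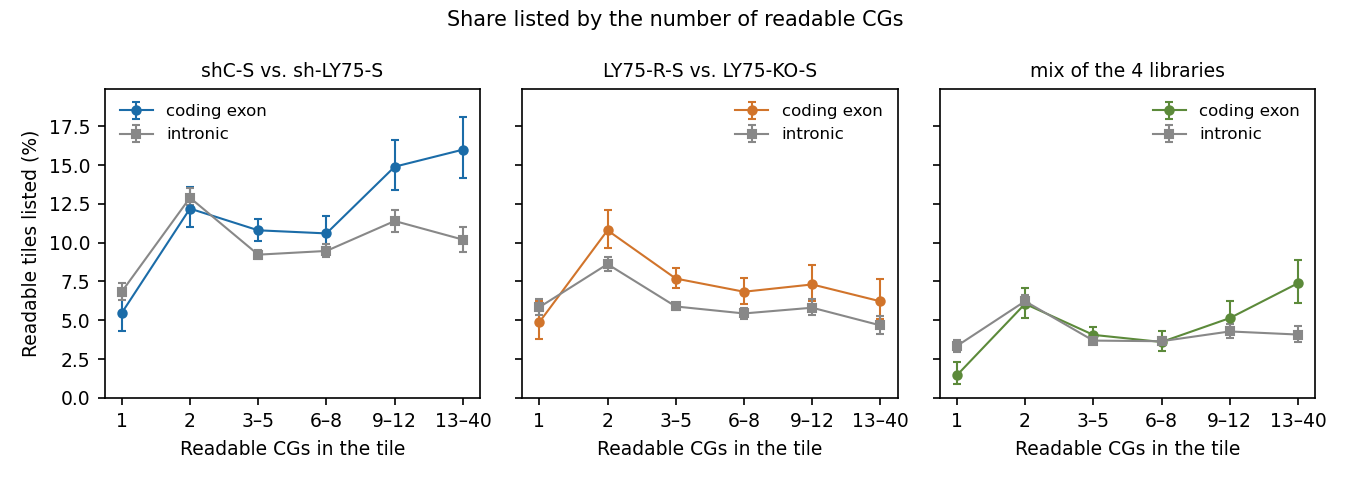
Percent of readable tiles listed (vertical axis) by the number of readable CGs in the tile (horizontal axis), for coding exon tiles (coloured circles) and intronic tiles (grey squares) in each comparison; error bars are 95% Wilson intervals. In the knockdown comparison the intervals of the classes are apart at 3 to 5, 9 to 12 and 13 to 40 readable CGs, with the widest gap at 13 to 40 (16.0% for coding exons and 10.2% for introns), while the knockout comparison is highest at 2 readable CGs.

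A coding exon tile is not measured in its coding part alone. Of the 3206 members, 1819 (56.7%) had at least 1 readable CG inside coding sequence, 1167 had readable CGs in the flanking intron or UTR alone, and 220 had none by the digest used here. Among the 14138 readable tiles that no table lists, 6665 (47.1%) had a readable coding CG, against 1819 of the 2986 readable members. The 56.7% above is a share of all members, readable or not. Tiles with readable CGs in coding and in flanking sequence were listed at 15.8% (14.9 to 16.8) in the knockdown comparison, and those with coding readable CGs alone at 12.3% (11.2 to 13.5). Tiles whose readable CGs all lay outside coding sequence were listed at 8.43% (7.86 to 9.03).

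In the mix the shares of the same groups were 6.33% (5.71 to 7.02), 5.14% (4.42 to 5.97) and 3.04% (2.7 to 3.43). In the knockout comparison the tiles with coding readable CGs stood at 8.74% with flanking CGs and 8.88% without, and those with none were at 6.45% (5.95 to 6.98). A tile with readable CGs in both places holds at least 2 by construction, and the shares were not matched for this number.

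Members and unlisted readable tiles were close in composition. The median member held 20 CGs, 4 of them readable, and 146 coding bases, with a median distance of 6820 bp from the nearest TSS. The median readable tile that no table lists held 20 CGs, 4 readable ones and 138 coding bases, at 6210 bp. The median GC content was 52.7% in members and 50.9% in unlisted tiles. Tiles at the CG limit were few, with 31 members of exactly 40 CGs and 29 listed coding tiles of 41 CGs left outside.

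Codon places of the readable coding CGs were also close. In members, 36.4% of the 7499 readable coding CGs began at the first base of a codon, 26.1% at the second and 37.6% at the third. In unlisted readable tiles the shares of 28426 CGs were 38.7%, 24.4% and 36.9%. CGs at the third base continue into the next codon, and those at the first base are arginine codons.

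First, internal and last exons of canonical transcripts could not be compared on an equal footing, because the distance rule takes away most first exons. Exons were counted with the noncoding ones, so a first coding exon that follows a noncoding exon is not classed as first. It left out 3634 annotated first-exon coding tiles within 2 kb of a TSS, and 12 readable first-exon tiles remained. Of the members, 2493 (77.8%) lay in an internal exon of a canonical transcript and 506 (15.8%) in the last exon. Another 4 lay in canonical transcripts of a single exon, 1 in a first exon, and 202 in coding sequence outside canonical transcripts.

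Internal and last exons were listed at similar shares. The knockdown comparison listed 11.5% of readable internal-exon tiles (11.0 to 12.1) and 11.5% of last-exon tiles (10.3 to 12.8). The knockout comparison listed 7.62% (7.18 to 8.08) and 7.97% (7.0 to 9.06), and the mix 4.59% (4.24 to 4.95) and 4.06% (3.37 to 4.88). The intervals overlapped in all 3 tables, which does not show that the exons behave alike.

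The 5 members in first exons or in transcripts of a single exon were named after their values were seen. The first-exon member was in PCDHAC1, a clustered protocadherin, at chr5:140308001-140309000, and the knockout comparison alone listed it. FZD7, a Frizzled receptor for Wnt ligands, had its member at chr2:202901001-202902000, 2423 bp from the TSS, in the knockdown comparison alone. PRR33 was also listed by the knockdown comparison alone, IRF2BPL by the knockout comparison alone, and PKDREJ, a polycystin family gene, by the knockdown comparison and the mix.

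The listed share also differed with distance from the TSS. The knockdown comparison listed 10.7% (9.96 to 11.4) of readable coding tiles from just over 2 to 5 kb from a TSS, 10.5% (9.69 to 11.4) up to 10 kb, 12.6% (11.7 to 13.6) up to 50 kb, and 20.5% (16.9 to 24.6) of the 420 tiles more than 50 kb away. In the knockout comparison the shares at these distances were 7.36% (6.77 to 8.0), 6.86% (6.18 to 7.61), 8.54% (7.8 to 9.34) and 9.05% (6.66 to 12.2). The intervals of the nearest and farthest tiles overlapped there, while those up to 10 kb and up to 50 kb did not. In the mix the shares were 3.95% (3.51 to 4.43), 4.49% (3.94 to 5.11), 4.91% (4.35 to 5.55) and 6.9% (4.85 to 9.74), with the nearest and farthest intervals apart. Position along the coding sequence gave a narrower range, from 10.1% (9.01 to 11.3) in the first 20% of the coding sequence to 12.6% (11.5 to 13.8) between 40% and 60% in the knockdown comparison.

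Chromosomes differed as well. The knockdown comparison listed from 7.24% of readable coding tiles on chromosome 14 (5.17 to 10.0) to 15.7% on chromosome 20. The knockout comparison ranged from 5.45% on chromosome 15 to 9.64% on chromosome 9, and the mix from 2.72% on chromosome 15 to 7.15% on chromosome 9. Copy number of the chromosomes in these clones was not analysed here.

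The neighbour of a listed coding tile was listed more often than adjacent coding tiles as a whole, though in most cases it was not. Among 2769 pairs of adjacent readable coding tiles, the neighbour of a tile listed in the knockdown comparison was itself listed in 21.6% of cases, where 12.7% of all tiles in such pairs were listed. The values were 10.3% against 7.39% in the knockout comparison and 8.86% against 4.89% in the mix. They rest on 76, 21 and 12 pairs with both tiles listed, each counted from either side, and no interval is given for them.

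The overlap of the single comparisons was near that of the whole genome for the knockdown list and below it for the knockout list. The knockdown and knockout comparisons had 369 members in common, which is 17.7% (16.1 to 19.4) of the knockdown list and 26.0% (23.8 to 28.3) of the knockout list. Over all autosomal tiles the shared parts were 16.0% (15.7 to 16.3) and 29.2% (28.7 to 29.8), with the intervals apart for the knockout list. Over intronic tiles they were 17.5% and 27.4%. The shared parts are larger than the levels at which readable coding tiles were listed at all, 7.61% in the knockout comparison and 11.4% in the knockdown comparison. The bases are unlike, since a listed tile was measured and a readable tile may not have been. The shared parts also count members without a readable CG, so the difference in level does not show agreement between clones. Of the readable coding exon tiles, 2.01% (1.81 to 2.24) were in both single comparisons, against 1.97% of all readable autosomal tiles. A tile in both lists may have moved in opposite directions, since direction was not used.

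By the set of tables, 1278 members were in the knockdown comparison alone, 915 in the knockout comparison alone and 70 in the mix alone. A further 203 were in both single comparisons without the mix, 439 in the knockdown comparison and the mix, and 135 in the knockout comparison and the mix. The 166 members in all 3 tables lie in 165 genes and make up, where readable, 0.899% (0.769 to 1.05) of the class, against 0.996% of all readable autosomal tiles. As the mix uses the same libraries, its listing adds no independent evidence.

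**Figure D3:**
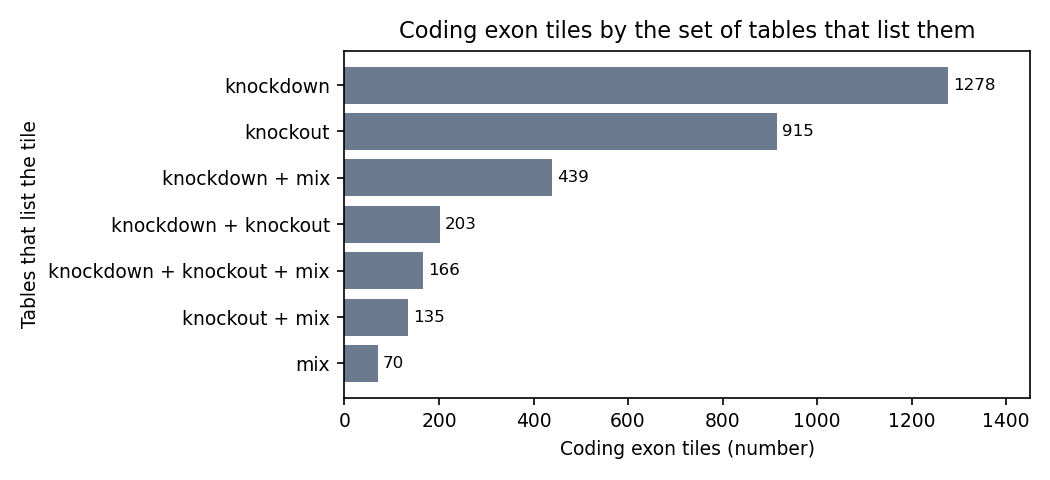
Number of coding exon tiles (horizontal axis) by the set of tables that list them (vertical axis), where knockout sets LY75-R-S against LY75-KO-S and knockdown sets shC-S against sh-LY75-S. The longest bars are the tiles listed by 1 single comparison alone, at 1278 and 915, and 166 tiles are in all 3 tables.

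Of the 7793 genes with a readable coding exon tile, the knockdown comparison listed such a tile in 19.2%, the knockout comparison in 15.1% and the mix in 8.7%. Most genes had few members, as 1782 genes had 1, 358 had 2 and 200 had 3 or more. The 10 genes with the most members had from 12 to 32 readable coding tiles, so their rank also depends on how many tiles could be read.

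RYR1 led with 12 members, 11 of them among its 28 readable coding tiles, where 17.4% of all readable coding exon tiles are members. Of the 12, 9 were in the knockdown comparison, 4 in the knockout comparison and 3 in the mix. They ran from exon 26 to exon 89 of its 106 exons, and the tile with the printed fragment, chr19:38974001-38975000, was in all 3 tables. CSMD2, a large transmembrane protein with CUB and sushi domains, had 10 members, 9 of them among its 13 readable tiles, and 7, 3 and 4 of the 10 were in the knockdown comparison, the knockout comparison and the mix. Its tile with exon 6, at chr1:34312001-34313000, was the member in both single comparisons.

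OTOG, which encodes otogelin of the inner ear, had 10 members, 9 of them among its 14 readable tiles, with 8 of the 10 in the knockdown comparison and 4 in the knockout comparison. Adjacent OTOG tiles with exons 48 and 49 were in both single comparisons. FBN3, a fibrillin of extracellular microfibrils, had 9 members against 20 readable tiles, 7 in the knockdown comparison and 4 in the knockout comparison. MUC2, the gel-forming mucin of the intestine, had 8 members, all among its 12 readable tiles. Of the 8, 5 lay in coding sequence outside its canonical transcript.

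CACNA1B, the pore subunit of the N-type calcium channel, had 8 members in all, 7 of them among its 18 readable tiles. Of the 8, 7 were in the knockdown comparison, 3 in the knockout comparison and 5 in the mix. Its tiles with exon 7 and exon 12 were in all 3 tables. ADAMTS2, the protease that trims procollagen N-ends, had 7 members against 17 readable tiles. All 7 were in the knockdown comparison and 1 of them in the knockout comparison. CDH23, a cadherin of hair cell tip links, had 7 members against 32 readable tiles, 5 in the knockdown comparison and 3 in the knockout comparison. COL5A1, a fibrillar collagen chain, had 7 against 29, and DNAH17, a dynein heavy chain of sperm flagella, 7 against 26.

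**Figure D4:**
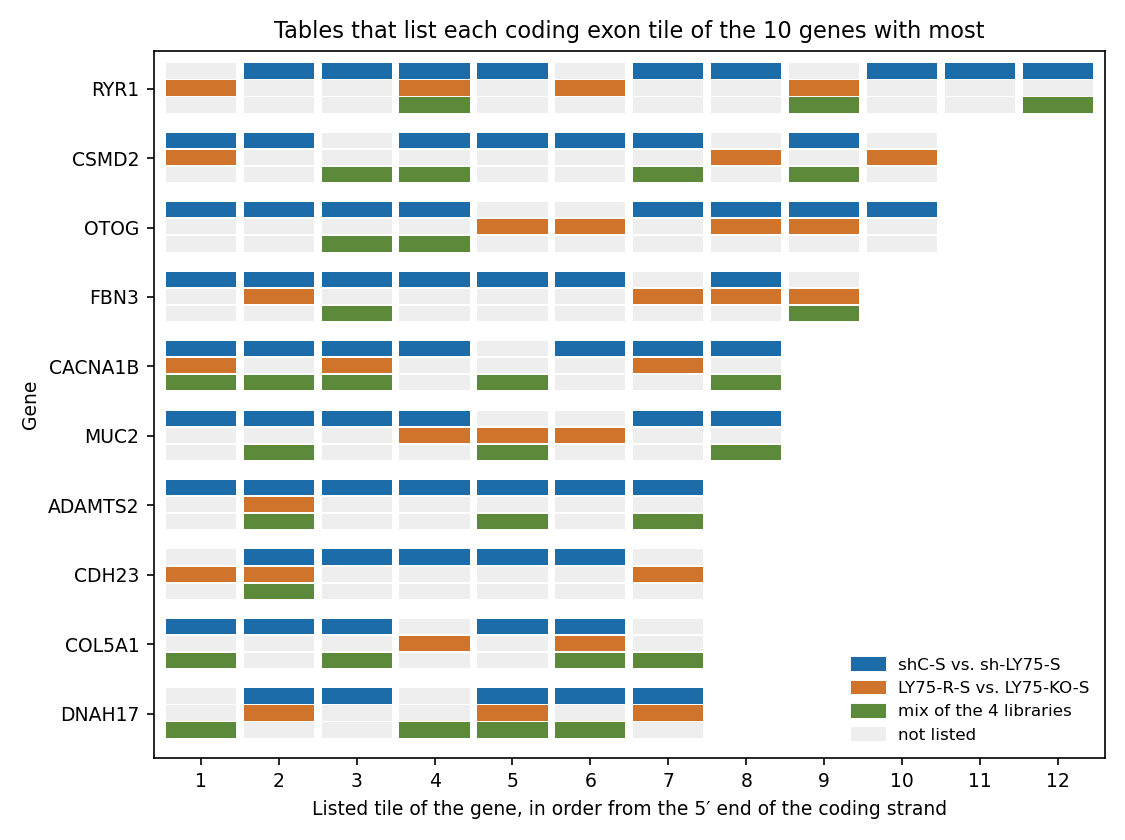
Listed coding exon tiles of the 10 genes with the most (vertical axis), in order from the 5′ end of each coding strand (horizontal axis, order not distance); each tile has 3 bars, coloured where shC-S vs. sh-LY75-S, LY75-R-S vs. LY75-KO-S or the mix lists it and grey where not. RYR1 has 12 tiles with 1 in all 3 tables, and all 7 ADAMTS2 tiles are in the knockdown comparison.

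Of the genes with a tile in all 3 tables, 6 had 2 such tiles. They were CACNA1B, CACNA1S (the L-type channel of skeletal muscle), KCNT1 (a sodium-activated potassium channel), ACAN, PLXNA4 and the read-through gene CORO7-PAM16. The KCNT1 pair was adjacent, with exons 27 and 28 of 31, in a gene whose 5 members were all in the knockdown comparison. One ACAN tile, chr15:89401001-89402000, is coding along all of its 1000 bp, and the other, with exon 2, has no readable coding CG. The tiles of CORO7-PAM16 fall in the last exon of PAM16, a mitochondrial import protein, and in exon 9 of the read-through transcript, and neither has a readable CG in coding sequence.

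LY75, the targeted gene, had 2 readable coding exon tiles beyond promoters, and 1 was a member, chr2:160750001-160751000, in the knockdown comparison alone. The tile holds exon 3, counted in the LY75-CD302 read-through transcript, with 171 coding bases, but both of its readable CGs are those of the MspI fragment printed above, outside the coding sequence. Of the 103 tiles that overlap LY75, 6 were readable. The tables list 4 of the 103, of which 1 has no readable CG, and the 4 include tiles within 2 kb of the TSS. None of this shows whether LY75 was lost, which is an RNA and protein measurement.

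The LY75 interaction partners are proteins that the study precipitated with LY75, many of them cytoskeletal. Of their 39 readable coding tiles, the knockdown comparison listed 1 (2.56%, interval 0.454 to 13.2), the knockout comparison 2 (5.13%, 1.42 to 16.9) and the mix 0, against class levels of 11.4%, 7.61% and 4.46%, which lie inside the intervals. Both knockout tiles were in the last exon of DSP, and 1 of them, chr6:7583001-7584000, is coding throughout. The knockdown tile was in exon 2 of DNM2, a dynamin that severs endocytic vesicles.

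In the knockdown comparison the intervals of the laminins, collagens and ADAMTS proteases all lay above the class level of 11.4%. These intervals treat tiles of the same gene as separate. The 50 readable laminin tiles lie in 10 genes, the 207 of the collagens in 36 and the 84 of the ADAMTS proteases in 16. The family lists were chosen with earlier results of these data known. Their shares were not matched to the class for TSS distance or readable CGs. The laminins, the cross-shaped chains of basement membranes, had 17 of 50 readable tiles in the knockdown comparison (34.0%, 22.4 to 47.8) 10 in the knockout comparison (20.0%, 11.2 to 33.0) and 3 in the mix (6.0%, 2.06 to 16.2). LAMC3 had 6 members against 14 readable tiles, and LAMA3 had 5 against 8. LAMA1 had 4, of which 3 were among its 10 readable tiles. For LAMA1, all 4 were in the knockdown comparison and 2 of them in the knockout comparison too.

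The collagens had 46 of 207 readable tiles in the knockdown comparison (22.2%, 17.1 to 28.4) 19 in the knockout comparison (9.18%, 5.95 to 13.9) and 15 in the mix (7.25%, 4.44 to 11.6). COL5A1, COL20A1 and COL4A1 led, and COL4A1, a basement membrane chain, had 5 of its 5 members in the knockdown comparison and 1 in the knockout comparison. The ADAMTS proteases of the matrix had 23 of 84 readable tiles in the knockdown comparison (27.4%, 19.0 to 37.7), 11 in the knockout comparison (13.1%, 7.47 to 21.9) and 13 in the mix (15.5%, 9.27 to 24.7). The knockout intervals of the collagens and the ADAMTS proteases include the class level of 7.61%, and the mix intervals of the laminins and collagens include that of 4.46%. In ADAMTS14 a tile with exon 19 was in all 3 tables. ADAMTS9 had 4 members against 6 readable tiles, 3 in the knockdown comparison and 2 in the knockout comparison.

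Voltage-gated calcium channel alpha1 subunits, which form the pore of each channel, had a listed tile in all 9 genes, where 28.3% of all genes with a readable coding tile had one. These are long genes, with 78 readable tiles between them. They had 22 of the 78 in the knockdown comparison (28.2%, 19.4 to 39.0), 12 in the knockout comparison (15.4%, 9.03 to 25) and 13 in the mix (16.7%, 10.0 to 26.5). CACNA1G, a T-type channel, had 5 members against 14 readable tiles, and 4 of the 5 were in the knockdown comparison.

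In the other long-gene families the knockdown shares were closer to the class level of 11.4%. Axonemal dynein heavy chains had 17 of 125 tiles in the knockdown comparison (13.6%, 8.67 to 20.7) and 15 in the knockout comparison (12.0%, 7.41 to 18.9). DNAH17 had 7 members against 26 readable tiles, DNAH1 had 6 against 20 and DNAH2 had 4 against 18. Myosin heavy chains had 23 of 151 (15.2%, 10.4 to 21.8) and 12 (7.95%, 4.6 to 13.4). Of the unconventional and muscle-type myosins, MYO7B had 5 members against 18 readable tiles. MYH13 had 4, of which 3 were among its 5 readable tiles, with adjacent tiles of exons 19 and 20 in both single comparisons. MYH14, a non-muscle myosin, had 3 against 21. Semaphorins and plexins had 6 of 54 (11.1%) and 7 (13.0%), and the spectrins and plakins 4 of 66 (6.06%, 2.38 to 14.6) in each. PLXNA4 had 3 members against 8 readable tiles and SEMA3G, a secreted semaphorin, had 3 against 6. PLXNA1 had 1 against 10, in the knockout comparison and the mix. SPTBN5, a spectrin beta chain, had 4 members against 15 readable tiles. Periplakin (PPL) had 1 against 4, in its last exon and in the knockdown comparison alone.

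The C2H2 zinc finger genes named ZNF, whose arrays of DNA-binding fingers are mostly coded by a long last exon, stood lower. They had 20 of 276 tiles in the knockdown comparison (7.25%, 4.74 to 10.9) and 12 in the knockout comparison (4.35%, 2.5 to 7.44). ZNF423 was apart from this, with 4 members against 5 readable tiles, all in the knockdown comparison. ZNF469 had 3 members in its long last exon, and 2 of them, adjacent and coding along all of their 1000 bp, were in the knockdown comparison. A ZNF100 tile with 4 CGs in its last exon was in all 3 tables.

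The protocadherins are a caution about counting genes. In the knockout comparison 15 of 45 protocadherin genes had a listed tile, but these were 2 tiles of 18 (11.1%, 3.1 to 32.8). One of them, chr5:140389001-140390000, lies in the last exon that PCDHA1, PCDHA10, PCDHAC1 and their neighbours share. The knockdown comparison listed 0 of the 18, which allows a share of up to 16.7% when the limit of a count of 0 is set at 3 counts.

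**Figure D5:**
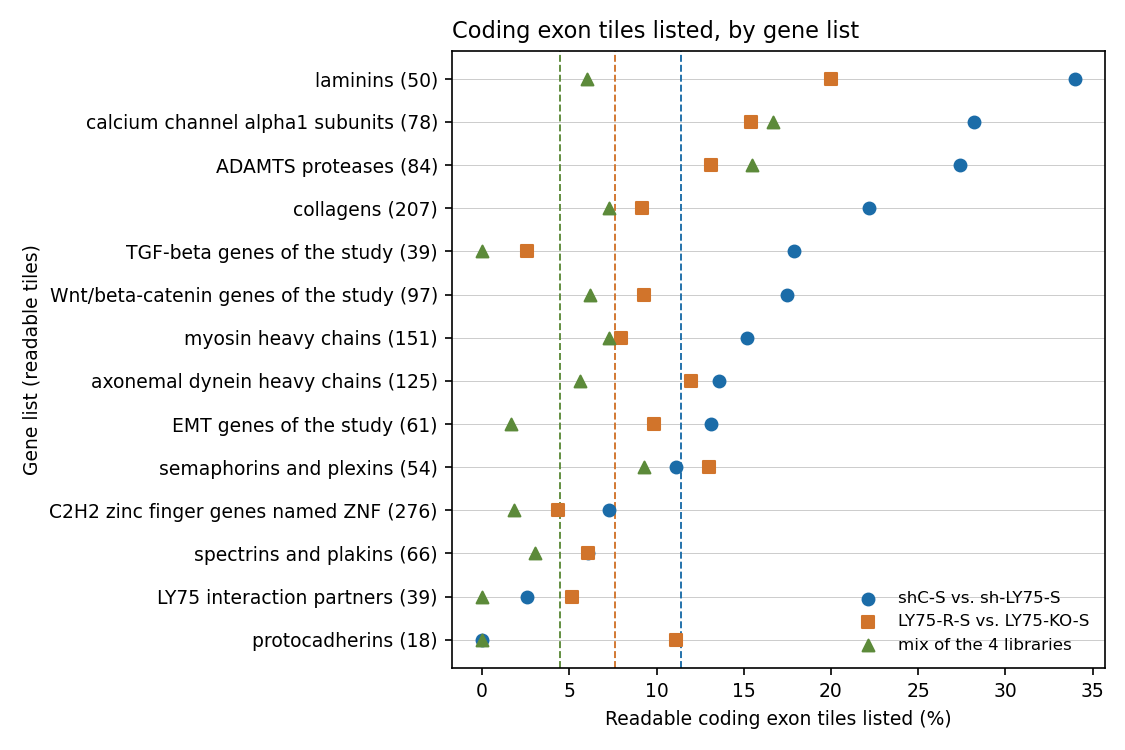
Percent of readable coding exon tiles listed (horizontal axis) in 14 gene lists (vertical axis, number of readable tiles in parentheses), for the knockdown comparison (blue circles), the knockout comparison (orange squares) and the mix (green triangles); dashed lines are the levels of all readable coding exon tiles, 11.4%, 7.61% and 4.46%. Laminins are highest in both single comparisons, at 34.0% and 20.0%.

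The pathway genes of the study were chosen by its authors on these libraries, so their shares are not independent evidence. The Wnt/beta-catenin genes had 17 of 97 readable tiles in the knockdown comparison (17.5%, 11.2 to 26.3), 9 in the knockout comparison (9.28%, 4.96 to 16.7) and 6 in the mix. LRP1, a large endocytic receptor, had 5 members against 21 readable tiles, where 17.4% of all readable coding exon tiles are members. RARA, a retinoic acid receptor, had 2 against 4, and WNT9B, a Wnt ligand, had 2 against 6. The WNT9B tiles were split, as exon 2 was in the knockdown comparison and exon 4 in the knockout comparison.

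The EMT genes of the study had 8 of 61 tiles in the knockdown comparison (13.1%, 6.8 to 23.8) and 6 in the knockout comparison (9.84%, 4.59 to 19.8). FGF19, a growth factor, had its last-exon tile in the knockout comparison, and FGF5 a tile in the knockdown comparison. The TGF-beta genes had 7 of 39 in the knockdown comparison (17.9%, 8.98 to 32.7), 4 of them in ZNF423 and 1 in BMP7, and 1 in the knockout comparison (2.56%, 0.454 to 13.2), in the acetyltransferase gene CREBBP. The intervals given for the Wnt/beta-catenin, EMT and TGF-beta genes each include the level of the class in the same comparison.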

How the data were processed

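The authors trimmed RRBS reads of 50 bp, aligned them to hg19 with Bismark 0.16.1 and ran methylKit on windows of 1000 bp; the trimmer is named as Trimmomatic in the extraction protocol and as Trim Galore 0.4.1 in the submitters' processing notes. The deposited tables keep tiles past a 25% difference, with an adjusted p-value threshold of 0.01 in the tables' names and a looser one in the methods. Their p-value, q-value and methylation difference columns hold the authors' own comparison and were not used, so the thresholds were not checked on them. How the libraries of the mix were combined, and the coverage minimum, are not given in the sources used here. RRBS reads carried no molecular identifiers.

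Tiles were joined by chromosome, start and end to the GRCh37 sequence and GENCODE release 44, and an MspI digest was made in silico. Shares were given with Wilson intervals (statsmodels 0.14.6; Python 3.11.15, pandas 2.3.3). The digest was tested on simulated data (200 of 200 fragments right), and codon places were checked in 392 transcripts. The members and gene lists were chosen with earlier results of these data known, and bins of readable CG, distance, position, codon place, neighbours and chromosomes were chosen after the tables had been seen. Genes were named by rule: the 10 with the most members, the 10 with the most in all 3 tables, LY75, its partners with a member, and the 3 with the most members in each other list; ties by symbol. Genes of the fragments are the 2 per exon class with the most CGs outside chromosome 8, others being named as chosen later. No test between conditions was made, as the tables give no values per library.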

Additional observations from a re-analysis of the deposited data

How the results depend on the processing

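Of 72 alternative values, 49 stayed within the interval of the reported share or within 1.5 times the reported count, and 23 did not. With a TSS distance of 5 kb the members numbered 1306, 867 and 527 in the knockdown comparison, the knockout comparison and the mix, the knockdown and mix shares were 12.0% and 4.8%, and last exons held 14.0% of members. Without a CG limit these shares were 12.1% and 4.78%, and last exons held 18.7%. With fragments of up to 300 bp the listed shares were 10.1%, 6.8% and 3.94%. When an adjacent tile counted as shared, 24.8% of the knockdown list and 33.4% of the knockout list were shared. Last exons held 17.2% of members with at least 100 bp of coding overlap and 19.1% where tiles touched a single canonical exon. Requiring a readable CG in coding sequence, an alternative chosen after seeing the data, left 1232, 746 and 500 members, listed shares of 14.5%, 8.79% and 5.89%, and 18.3% in last exons. No paired analysis was possible because the values come from no test and each clone has 1 library. Depth per tile is unknown, so an unlisted tile may be unmeasured.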
